A study of Mus musculus with 6 samples.

Results

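The genes described here are 32 known hypoxia-induced targets of the hypoxia-inducible factors (HIF) that lie outside the glycolytic pathway. They were taken by gene symbol, a rule that holds no threshold on the signals, although the list was drawn up with earlier results of these arrays known. They lie among 18193 genes named on the arrays. Of the 32, 30 had at least 1 probe set (a group of short probes for 1 transcript) annotated to them alone, with 72 probe sets in all. The other 2, Bnip3l and Loxl2, lay only on probe sets that the annotation shares with a second gene, and no value is given for them. After genes of low signal were set aside, 24 of the 30 were tested, among 10960 genes tested in all.

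HIF is a transcription factor of an alpha and a beta subunit. In oxygen, prolyl hydroxylases mark the alpha subunit for recognition by the von Hippel-Lindau protein and for destruction. When oxygen falls, the alpha subunit persists and the pair binds promoters and enhancers with the core motif ACGTG or GCGTG. Its targets outside glycolysis cover mitochondrial turnover, transcriptional feedback, restraint of growth signalling, collagen processing, pH and lipid control, and secreted factors. Neutrophils rely heavily on glycolysis, and HIF is known to prolong their survival in hypoxia.

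The arrays measured neutrophils of mouse peripheral blood, 1 mouse per array, purified by negative magnetic selection and cultured for 4 h in hypoxia at 3% O2. Both groups were on a C57 background. The phd3 null group (3 arrays) lacks phd3, the HIF prolyl hydroxylase gene now named Egln3, and the wild-type group (3 arrays) carries it. How the null allele was made, and the age and sex of the mice, are not given in the sources used here. Arrays of cells kept at normal oxygen were not analysed here, and the values are levels in hypoxia, not responses to it. Samples carry the numbers 1 to 3 in both genotypes, and same-numbered samples share a code in their source labels, so each number is called a replicate and joins 1 array of each genotype. The series asks what PHD3 does in hypoxic neutrophils.

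The 6 arrays had median signals from 49.4 to 64.2. Both arrays of replicate 3 stood apart, each correlating with the rest at a median of 0.739 (phd3 null) or 0.788 (wild type), where the remaining 4 reached 0.838 to 0.866. Egln3, itself a HIF target, had signals of 87.2, 29.6 and 73.5 (phd3 null 1 to 3) beside 2088, 1733.9 and 327 (wild type 1 to 3). It was thus low in every phd3 null sample, and wild-type sample 3 was the lowest of its group. The 3'/5' signal ratio of the Actb control probe sets, a measure of RNA integrity, ran from 1.63 to 2.09, with both replicate 3 arrays inside the range of the others. That of Gapdh ran from 0.659 to 0.805, with wild-type sample 3 lowest. Among markers of the labelled cell type, the neutrophil gene S100a8 had signals from 11102.8 to 25479.7. Csf1r, a marker of monocytes, ran from 3537.6 to 11088.3. Markers of both cell types thus gave strong signals, and the level of a target cannot be assigned to neutrophils alone.

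Promoter windows show what these genes share in sequence. The RefSeq table of mouse build GRCm38.p6 held windows from 250 bases before to 50 bases after an annotated start for 23 of the 32 genes, 31 windows of 300 bases in all. ACGTG and GCGTG were searched on both strands, and overlapping matches that share a CG were counted once. At least 1 match lay in a window of 21 of the 23 genes (91.3%), against 64.4% of the genes tested and 46.7% of all genes in the table. Counted by window, 23 of 31 held a match (74.2%), against 58.9% of the windows of genes tested and 43.8% of all windows. ACGTG, counted by itself, was present for 8 of the 8 targets with a window that followed the replicate number in the test described below. It was present for 6 of the 11 tested targets with a window that did not (54.5%), against 28.6% of the genes tested. The 8 include Errfi1, called higher in replicate 3, and leave out Bhlhe40, called lower, which has no window. The share among all genes called for replicate number was not counted. These shares describe letters and not bound sites, and no comparison between them was tested. The targets were listed because they are known to respond to HIF, so a high share describes the choice of genes as much as these samples.

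Windows of 6 genes are printed because the 5 targets with the smallest adjusted p for replicate number, and 1 target that was not called and holds as many matches as Bnip3, can be set side by side. Each is read 5′ to 3′ along the gene, and capitals mark every ACGTG or GCGTG on the printed strand and its reverse complement, CACGT or CACGC. Bnip3 lies on the minus strand at chr7:138909457-138909756, Fam162a on the minus strand at chr16:36071512-36071811, Higd1a on the minus strand at chr9:121857747-121858046, Ddit4 on the minus strand at chr10:59951721-59952020, P4ha1 on the plus strand at chr10:59323046-59323345 and Ankrd37 on the minus strand at chr8:45999801-46000100.
Bnip3: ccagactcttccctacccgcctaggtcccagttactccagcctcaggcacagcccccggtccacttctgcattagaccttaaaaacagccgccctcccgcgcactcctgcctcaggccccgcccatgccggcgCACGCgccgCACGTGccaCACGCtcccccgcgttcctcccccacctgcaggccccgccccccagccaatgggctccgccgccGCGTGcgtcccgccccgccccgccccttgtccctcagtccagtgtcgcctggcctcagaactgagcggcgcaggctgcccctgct
Fam162a: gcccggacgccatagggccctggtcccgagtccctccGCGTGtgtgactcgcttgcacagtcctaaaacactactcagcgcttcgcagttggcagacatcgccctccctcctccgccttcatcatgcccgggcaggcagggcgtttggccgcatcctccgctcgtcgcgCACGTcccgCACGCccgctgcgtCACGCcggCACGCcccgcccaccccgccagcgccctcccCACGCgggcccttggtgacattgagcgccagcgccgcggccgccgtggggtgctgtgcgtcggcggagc
Higd1a: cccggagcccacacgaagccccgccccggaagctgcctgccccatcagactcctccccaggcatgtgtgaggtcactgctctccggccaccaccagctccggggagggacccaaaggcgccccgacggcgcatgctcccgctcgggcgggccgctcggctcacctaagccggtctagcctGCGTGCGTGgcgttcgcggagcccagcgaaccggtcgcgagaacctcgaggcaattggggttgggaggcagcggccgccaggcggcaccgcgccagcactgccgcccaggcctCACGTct
Ddit4: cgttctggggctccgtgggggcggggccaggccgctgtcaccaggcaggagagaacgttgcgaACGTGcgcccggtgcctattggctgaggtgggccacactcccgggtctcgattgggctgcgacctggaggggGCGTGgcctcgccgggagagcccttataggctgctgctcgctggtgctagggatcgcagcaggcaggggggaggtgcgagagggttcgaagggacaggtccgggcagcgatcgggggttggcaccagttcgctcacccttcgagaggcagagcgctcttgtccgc
P4ha1: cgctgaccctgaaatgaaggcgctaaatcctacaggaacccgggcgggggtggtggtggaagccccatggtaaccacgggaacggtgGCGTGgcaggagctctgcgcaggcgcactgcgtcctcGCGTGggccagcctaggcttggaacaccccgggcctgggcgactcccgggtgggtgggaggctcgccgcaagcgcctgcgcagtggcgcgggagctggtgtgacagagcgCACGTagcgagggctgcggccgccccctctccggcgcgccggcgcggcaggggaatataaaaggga
Ankrd37: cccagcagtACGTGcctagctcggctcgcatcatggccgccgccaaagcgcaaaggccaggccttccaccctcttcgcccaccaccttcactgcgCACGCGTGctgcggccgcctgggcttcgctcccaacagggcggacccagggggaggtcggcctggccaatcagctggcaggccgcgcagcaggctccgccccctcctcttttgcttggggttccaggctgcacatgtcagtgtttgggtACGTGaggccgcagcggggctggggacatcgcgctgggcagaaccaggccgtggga
Bnip3 holds 4 matches, 1 of them a palindrome that reads ACGTG on both strands, 106 bases before the start. Fam162a holds 6, of which 5 are GCGTG. Higd1a and P4ha1 hold 3 each and Ddit4 holds 2. Ankrd37 holds 4, of which 2 are ACGTG.

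Of the 24 targets tested, 9 followed the replicate number and 0 followed the genotype. The genotype fit without a block did not call even Egln3, so 0 calls there do not show that the genotypes are alike. The 9 were called by an F test of replicate number in a limma fit with genotype and replicate as terms, at a Benjamini-Hochberg adjusted p under 0.05 over all 10960 genes. The same test called 11.1% of all genes (1218). Of the 9, 8 were lower in replicate 3 than in replicates 1 and 2 (Bnip3, Fam162a, Higd1a, Ddit4, P4ha1, Bhlhe40, Selenbp1 and Mxi1), where the background was 7.18%. Errfi1 alone was higher, where the background was 3.93%. For every gene called, lower or higher goes by the sign of replicate 3 minus the mean of replicates 1 and 2. The F test itself takes no replicate as special. In the same 8 targets, both replicate 3 arrays lay below all 4 other arrays, a pattern of 16.9% of all genes. Both lay above the other 4 in 3 targets (Errfi1, Narf and Stc2), against 18.5% of all genes. All 9 calls need the trend of variance with signal that the fit estimates: without it limma called 0 genes of any kind (1883 at an unadjusted p under 0.05, with 8 of the targets among them), and the lowest adjusted p of a target was 0.112.

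**Figure D1:**
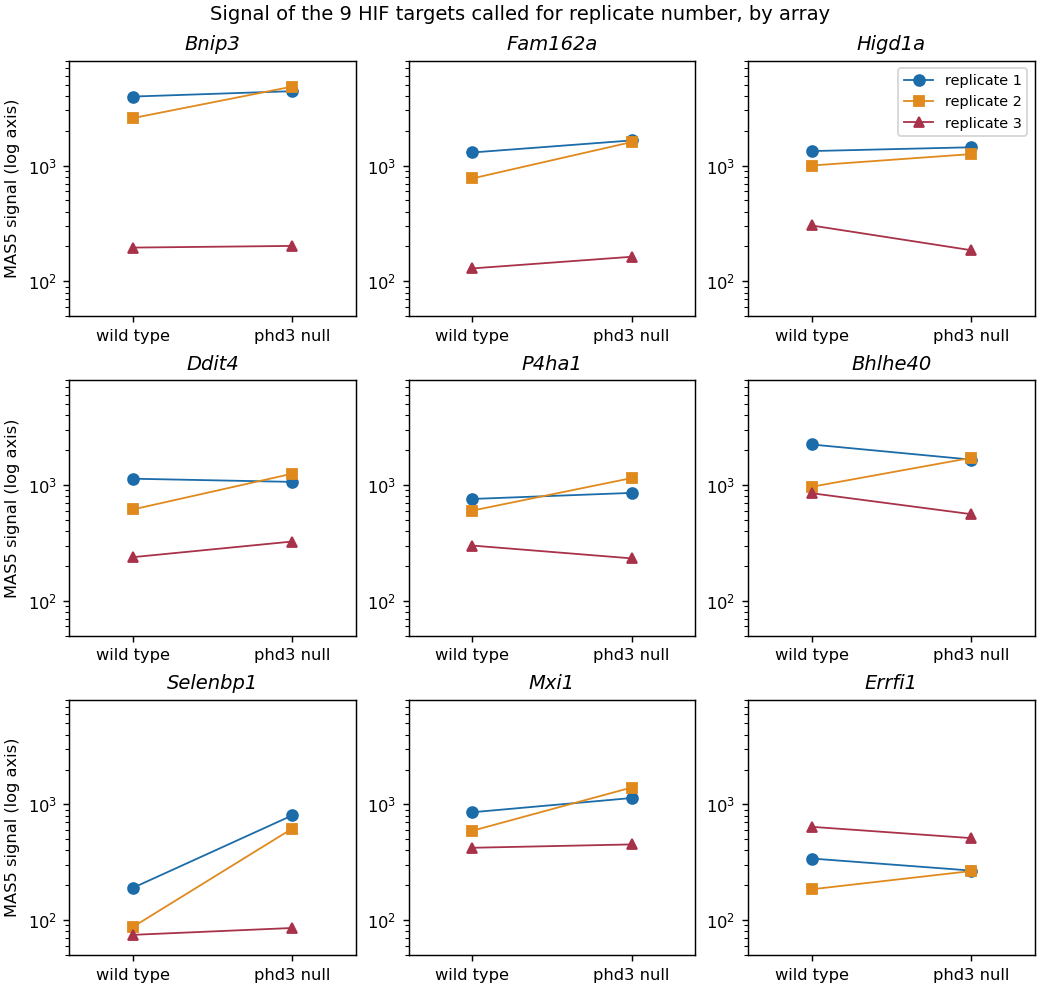
MAS5 signal of the 9 targets called for replicate number, on a log axis, with wild type on the left and phd3 null on the right of each panel; each line joins the 2 arrays of 1 replicate. Replicate 3 lies below both other replicates in 8 panels, by most in Bnip3 (195.7 and 202.3 against 2575.4 to 4817.4), and above them in Errfi1.

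Mitochondrial targets showed the widest gap, and all 3 that were tested were called. Bnip3, a receptor on the outer mitochondrial membrane that recruits the autophagy machinery, had signals of 4396.5, 4817.4 and 202.3 in phd3 null samples 1 to 3, with 3949.7, 2575.4 and 195.7 for wild type 1 to 3, the order used for each gene below. The 2 arrays of replicate 3 were far below the other 4, and the genotypes overlapped. On the log2(signal + 16) scale used throughout, replicate 3 minus the mean of replicates 1 and 2 was -4.16 (SE 0.24), with an adjusted p of 1.29e-07 for replicate number. Fam162a, a mitochondrial protein linked to cell death in hypoxia, was at 1649.7, 1596.9 and 163 in phd3 null samples, with 1298.6, 774.8 and 129.3 for wild type. Replicate 3 was again lowest in both genotypes, by -3.00 (SE 0.24, adjusted p 5.02e-06). A second, dimmer probe set of Fam162a, with signals from 36.6 to 113.8, did not share this pattern, with a replicate 3 difference of 0.35. Averaging both probe sets gave -1.33 and kept the call (adjusted p 0.0220).

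Higd1a, an inner-membrane protein associated with respiratory chain complexes, was at 1439.9, 1256.4 and 185.9 in phd3 null samples, with 1335.2, 1001.5 and 303.8 for wild type. Both replicate 3 arrays were low, the phd3 null one lowest of all, and the genotypes overlapped. The replicate 3 difference was -2.31 (SE 0.25, adjusted p 5.31e-05), and both other probe sets of Higd1a were also lower in replicate 3, by -1.01 and -0.25. With the mean of its 3 probe sets it was -1.19 and did not pass (adjusted p 0.0585). The fourth mitochondrial gene listed, Bnip3l, has no value here.

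Among transcriptional regulators, 2 of 4 tested targets were called, both lower in replicate 3. Bhlhe40, a basic helix-loop-helix repressor that also acts in the circadian clock, was at 1657.6, 1714.3 and 560 in phd3 null samples, with 2238.3, 964.5 and 849 for wild type. The gap between wild-type samples 2 and 3 was small beside the rest, and the genotypes overlapped. Its replicate 3 difference was -1.17 (SE 0.27, adjusted p 0.0154). It missed the threshold, at -0.78 with an adjusted p of 0.0924, when phd3 null sample 3 was left out. Leaving out wild-type sample 1 gave -1.04 (adjusted p 0.0731) and quantile normalization -0.93 (adjusted p 0.0648), again with no call.

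Mxi1, which competes with MYC for the partner MAX, was at 1134.7, 1398.9 and 450.8 in phd3 null samples, with 855.1, 592 and 421.7 for wild type. Replicate 3 was lowest in each genotype, and the fall was wider in the phd3 null samples. The replicate 3 difference was -1.09 (SE 0.26, adjusted p 0.0261), a call lost on leaving out phd3 null sample 3, at -0.73 with an adjusted p of 0.392. Leaving out wild-type sample 1 (-1.03, adjusted p 0.0504) and quantile normalization (-0.87, adjusted p 0.0957) lost it too. Cited2, which limits HIF by occupying its coactivator, was nearly flat at 497 to 666.1 over the 6 arrays (replicate 3 difference 0.17, adjusted p 0.881). Rora, an orphan nuclear receptor, was at 165.6, 176.5 and 161.8 in phd3 null samples, with 31, 94.8 and 211.6 for wild type. Its phd3 null samples lay close together while its wild-type samples spread widely, and its adjusted p for replicate was 0.335, or 0.0395 without phd3 null sample 3 (1.66).

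Of 7 signalling and stress targets, 1 fell and 1 rose in replicate 3. Ddit4, an inhibitor of mTORC1 signalling, was at 1063.5, 1252.6 and 324.8 in phd3 null samples, with 1133, 615.4 and 238 for wild type. Both replicate 3 arrays lay below the other 4, by -1.76 (SE 0.25, adjusted p 0.000671). Errfi1, a feedback inhibitor of the EGF receptor, was at 268.1, 265.2 and 511.2 in phd3 null samples, with 340.5, 184.6 and 639.8 for wild type. It ran the other way from Ddit4, with the 2 highest signals in replicate 3. Its difference was 1.10 (SE 0.27, adjusted p 0.0269), and its second probe set gave 0.96. It was not called without wild-type sample 2 (0.89, adjusted p 0.0512), without wild-type sample 3 (0.90, adjusted p 0.164) and with arrays centred on their medians (0.87, adjusted p 0.0841).

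Ndrg1, a hypoxia- and stress-responsive protein, missed the threshold for replicate. It was at 1107.9, 1365 and 358.7 in phd3 null samples, with 659.9, 265.8 and 320.3 for wild type. Its 4 other probe sets were also lower in replicate 3, by -1.26 to -0.69, against -1.05 (SE 0.33, adjusted p 0.0885) for the brightest. The value came to -0.38 (adjusted p 0.470) on leaving out phd3 null sample 3, whereas leaving out wild-type sample 3 gave -1.73 and a call (adjusted p 2.79e-05). Leaving out phd3 null sample 2 gave -0.59 and leaving out wild-type sample 2 gave -1.52, both with a call (adjusted p 0.000313 and 1.17e-05). Ankrd37, a small ankyrin-repeat protein, was at 1197.6, 1656.4 and 1008.8 in phd3 null samples, with 1280.2, 934.6 and 701.6 for wild type, with an adjusted p of 0.330 for replicate. The remaining 3 of the 7 are Wsb1, a substrate receptor of a ubiquitin ligase (1951.5 to 3113), Narf, which binds prelamin A (151.2 to 295.7), and Siah2, a ubiquitin ligase known to act on PHD3 (41.9 to 117.8). None of these 3 passed, with replicate 3 differences of 0.15, 0.50 and 0.22.

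P4ha1 was the collagen-processing target called among 4 tested. It encodes the catalytic subunit of collagen prolyl 4-hydroxylase and was at 854.3, 1147.6 and 232.2 in phd3 null samples, with 757.4, 601 and 299.6 for wild type. Replicate 3 was lowest in both genotypes, by -1.57 (SE 0.27, adjusted p 0.00274), and its second probe set gave -1.39. Without phd3 null sample 3 the difference was -1.13 and missed the threshold (adjusted p 0.0594). P4ha2, the alternative catalytic subunit, and the lysyl hydroxylases Plod1 and Plod2 did not pass, with adjusted p from 0.345 to 0.694.

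Selenbp1, a methanethiol oxidase, was the 1 target called among 3 of metabolism and pH. It was at 804.2, 618.6 and 85.5 in phd3 null samples, with 190.4, 87.6 and 74.6 for wild type. Phd3 null samples 1 and 2 stood above all other arrays, while phd3 null sample 3 lay with the wild-type samples. Its replicate 3 difference was -1.76 (SE 0.40, adjusted p 0.0158), but it was -0.69 in the absence of phd3 null sample 3, without a call (adjusted p 0.216), and -2.83 in that of wild-type sample 3. Its second probe set was lower in replicate 3 by -3.20. Insig2, which holds back activation of sterol-regulated transcription, ran from 105.1 to 212.5, and Car12, a membrane-bound carbonic anhydrase, from 24.6 to 85.6. Neither passed, with replicate 3 differences of -0.20 and -0.17.

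None of the 3 secreted factors tested was called. Vegfa, the main angiogenic growth factor, was at 374.1, 235.2 and 104.5 in phd3 null samples, with 185, 108.4 and 152.8 for wild type. Phd3 null sample 3 was lowest of its group, but wild-type sample 3 was not. Its replicate 3 difference was -0.64 (SE 0.35, adjusted p 0.292), and -1.38 with a call without wild-type sample 3 (adjusted p 0.0223). Pdgfb, a platelet-derived growth factor chain, ran from 42.8 to 176.7, and Stc2, a secreted glycoprotein, from 42.7 to 98.7. Stc2 was higher in replicate 3 by 0.69 (SE 0.51, adjusted p 0.633 for replicate), and its other probe sets by 0.72 and 1.17. At such low signals a missing call does not show that a gene was steady.

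Too dim to test were 6 targets with a probe set: Adm, Angptl4, Vldlr, Bhlhe41, Zfp395 and Ppp1r3c. Their brightest probe sets had signals from 2 to 88.3 over the 6 arrays. They include the genes of the vasodilator peptide adrenomedullin (Adm) and of a secreted inhibitor of lipoprotein lipase (Angptl4). No detection calls were used, so these signals do not tell presence from absence.

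Each of the 8 targets called lower was lower in replicate 3 among the phd3 null samples and among the wild-type samples taken alone. The 8 were called from these same arrays by a fit that pools both genotypes. Agreement between the genotypes is therefore partly set by that choice, and it was not counted over all genes called lower. The fall was wider in phd3 null for 8 of the 8, against 68.1% of all genes called lower, but by very unequal amounts, from -1.78 against -1.75 in Ddit4 to -2.83 against -0.69 in Selenbp1. A test of whether the genotype difference in replicate 3 departs from that in replicates 1 and 2, added after the data were seen, called 0% of all genes in limma (612 genes at an unadjusted p under 0.05). Selenbp1 was the single target at an unadjusted p under 0.05 (difference of differences -2.14, SE 0.68, unadjusted p 0.00995, adjusted p 0.866). Over the 24 targets the median replicate 3 difference was -0.47, against 0.10 for all genes. It was -1.07 among the phd3 null samples and -0.13 among the wild-type samples, so it moves between these values when wild-type sample 3 or phd3 null sample 3 is left out, and it was also -0.13 without phd3 null sample 2. Without wild-type sample 2 it was -0.73.

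**Figure D2:**
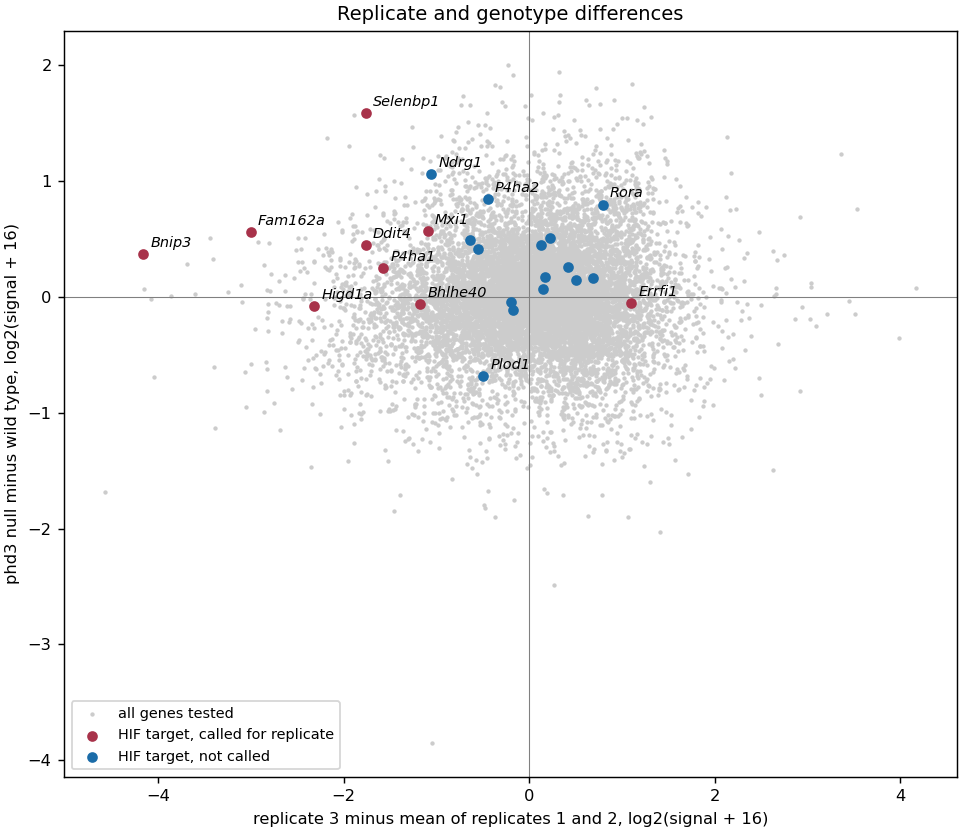
Each point is 1 gene, with the replicate 3 difference on the x axis and the phd3 null minus wild-type difference on the y axis, both on the log2(signal + 16) scale; grey points are all genes tested, red points the 9 targets called for replicate and blue points the other 15. Bnip3 (-4.16) and Fam162a (-3.00) lie at the left edge near 0 to 1 on the y axis, and Selenbp1 (1.59) is the highest target.

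Another view of the same values is the share of each gene's variation over the 6 arrays that falls between replicates, between genotypes and in neither. Replicate was the largest share in 17 of 24 targets (70.8%), against 60.1% of all genes, genotype in 2 and the residual in 5. The median share between replicates was 55.1% for the targets and 53.1% for all genes, and the median share between genotypes 6.33% and 8.94%. The targets as a group were therefore close to the background in these shares, and the 3 mitochondrial targets stood at the top, at 98.2% for Bnip3, 96.3% for Higd1a and 95.1% for Fam162a. Cited2 and P4ha2 were those with genotype as the largest share, at 41.3% and 38.3%. With 3 replicate numbers and 2 genotypes, the replicate share has an extra degree of freedom, so the shares are not to be read against each other within a gene without the all-gene values.

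**Figure D3:**
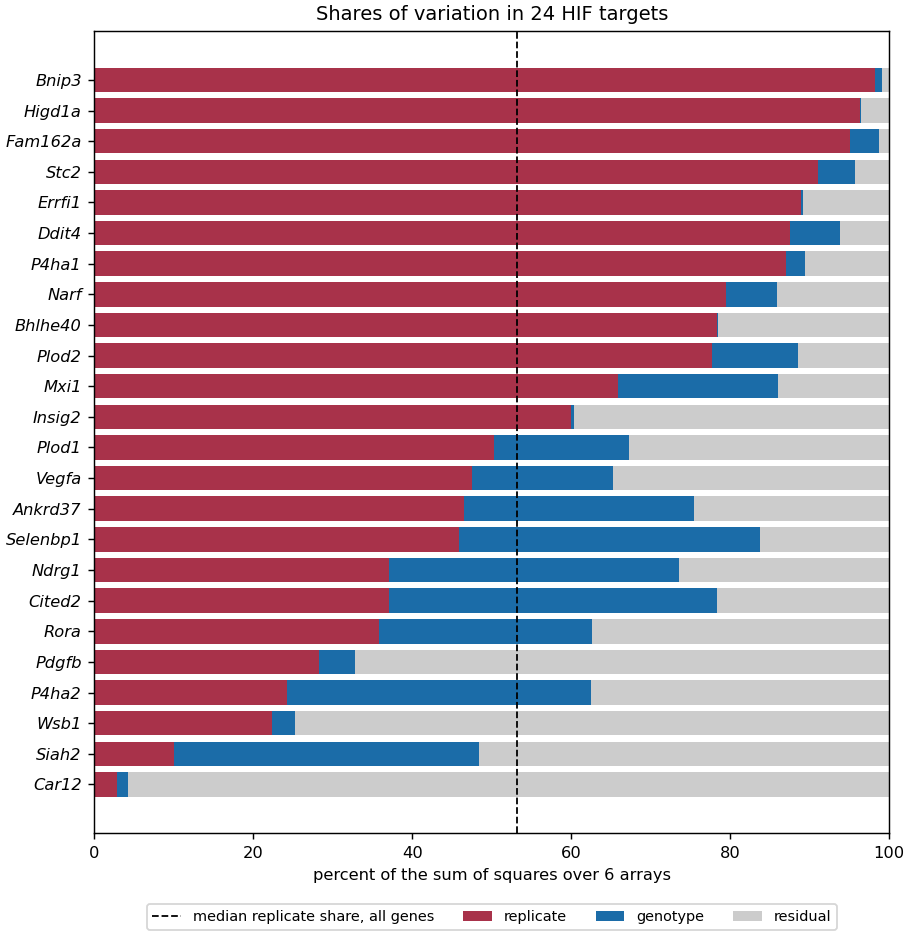
Stacked bars give the percent of each target's sum of squares over 6 arrays that lies between replicates (red), between genotypes (blue) and in the residual (grey), ordered by the replicate share. The dashed line is the median replicate share of all genes (53.1%), and 12 of the 24 targets lie beyond it.

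Some other measured features also moved with replicate 3 in the same arrays, and their part in the result was not tested. Summed signals of 11 measured neutrophil markers were 26177.7 and 43945.5 in replicate 3 (phd3 null and wild type). The other 4 arrays ran from 42239.8 to 58345.7, so the wild-type sum lay inside their range. Of the 11, 4 were called lower, by most the chemokine receptor gene Cxcr2 (25.6 and 227 against 558.9 to 978.9). Another of the 4, Lcn2, was higher in wild-type sample 3 (1341) than in wild-type sample 2 (894.5). S100a9, not called, was also higher in wild-type sample 3 (20746) than in sample 2 (19936.2). Both replicate 3 signals of Mmp9 and Cd177 lay inside the range of the other 4 arrays. For 7 monocyte markers the sums were 5272.5 and 6334.2 against 17615.7 to 19269.5, with 5 of 7 called lower. The difference among these was largest in F13a1 (455.1 and 474.9 against 4135 to 6879.1). It was smallest in Ccr2 (301.1 and 385.4 against 284.2 to 997.4), where wild-type sample 1 was the lowest array. Fcgr1, which was not called, went the other way, at 160.1 and 162.6 against 72.8 to 128.8. For 7 B cell markers they were 3598.1 and 2981.8 against 271.8 to 738.4, with 5 of 7 called higher. In a bulk sample, fewer cells of a type and less RNA per cell cannot be told apart. T cell marker sums were also above the rest in replicate 3, at 695.2 and 546.3 against 192.1 to 438.7, and 2 of the 5 tested were called higher.

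Of the eosinophil and basophil list, most genes were too dim to test, and the sums were also highest in replicate 3, at 574.5 and 631.9 against 208.5 to 496.2. The NK cell sums of 2266.9 and 3365.9 lay within the 482.6 to 5835.3 of the other arrays. Of 7 NK cell markers, 5 were called for replicate, 4 with a replicate 3 difference above 0 and 1 below. In Gzma, Klrk1 and Nkg7, replicate 3 lay between replicates 1 and 2 in both genotypes, with replicate 1 lowest. Gzma was at 228.4, 1599.5 and 1342.3 in phd3 null samples, with 789.7, 3717.1 and 1853.7 for wild type. Klre1, the 1 below 0, had a difference of -0.13 (SE 0.39). Among 5 measured erythroid markers the sums were 6943.9 and 4896.2 against 891 to 6050.2. Of the 4 tested, 2 were called (Alas2 and Slc4a1), with replicate 3 differences above 0. Alas2 in wild-type sample 3 (4110.8) was nevertheless below wild-type sample 2 (5529.7). Platelet sums were 866.9 and 408 against 444.9 to 557.3, with 0 of 4 tested called. No marker signal was at 0, the lowest being 1.4. Of 15 immediate early and heat shock genes tested, 8 were called for replicate. The replicate 3 difference was above 0 in 6 (Hspa1a, Hspa1b, Hspa8, Hsph1, Dnajb1 and Egr1) and below 0 in 2 (Ier3 and Egr2). Egr1 was lowest in replicate 2 (280 and 385.4 in phd3 null and wild type). Its replicate 3 signals (1186.9 and 1340.5) lay below those of replicate 1 (1295.4 and 3706.5). Egr2 in phd3 null sample 3 (137.3) was above phd3 null sample 2 (110). Hspa1a, a heat shock gene, stood at 1157.9 and 1175.1 in replicate 3 and at 67.2 to 171.3 elsewhere.

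**Figure D4:**
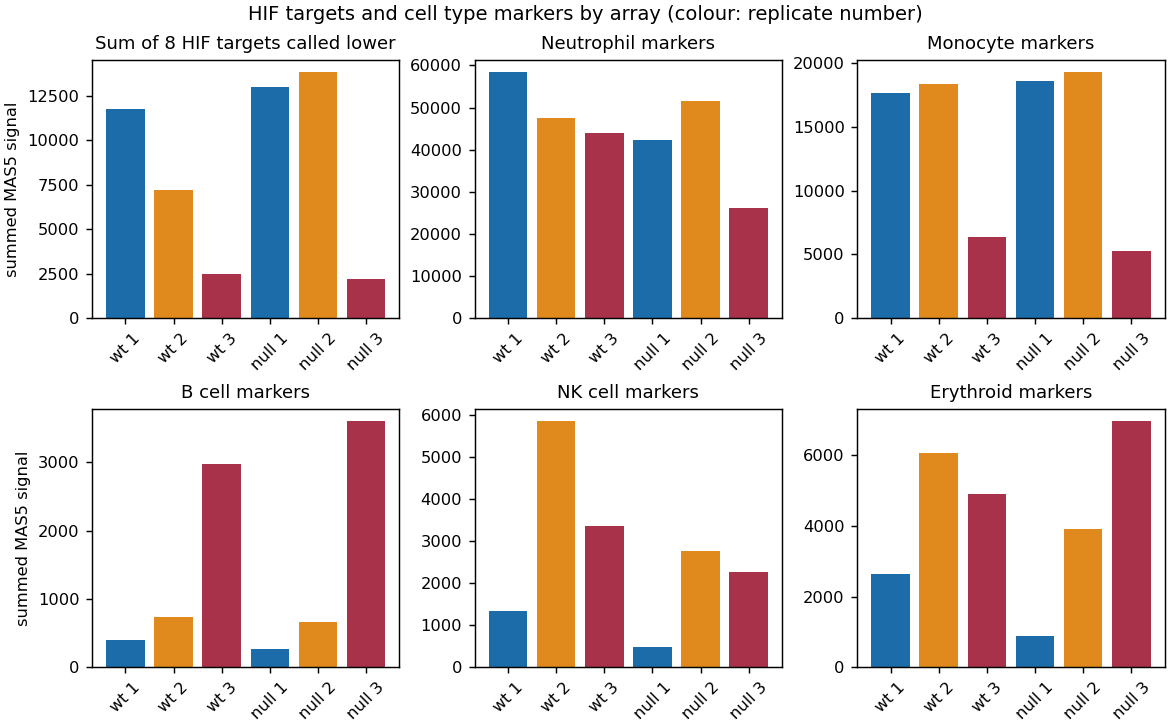
Bars give, per array, the summed MAS5 signal of the 8 targets called lower and of 5 cell type marker lists, with blue, orange and red for replicates 1, 2 and 3 and wt and null for the genotypes. The targets' sum is 2511.7 and 2204.5 in replicate 3 against 7212.2 to 13802.7 elsewhere; monocyte markers are low and B cell markers high in the same 2 arrays.

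By the brightest probe set of each gene, no target was called for genotype. In limma without a block, 0 targets were called (adjusted p 0.9996 for each, 0 at an unadjusted p under 0.05), and 0% of all genes were called (191 at an unadjusted p under 0.05). Egln3, which the phd3 null group lacks, was not called in this fit either (-3.85, SE 0.65, unadjusted p 0.000182, adjusted p 0.9996). A missing call in it therefore says little about a target. By the same probe sets, no target had all phd3 null arrays above all wild-type arrays, a pattern of 3.9% of all genes, or all below, a pattern of 3.02%. Among the 33 dimmer probe sets of these genes, 0 had all phd3 null arrays below, against 4.01% of such probe sets over all genes tested. All phd3 null arrays lay above in 3 of these probe sets, against 4.94%. They were the second probe set of Fam162a (71.6 to 113.8 in phd3 null, 36.6 to 46.3 in wild type), 1 of Insig2 (101.8 to 133.7 and 53.3 to 81.5) and 1 of Rora (108.3 to 121.6 and 67.3 to 90.1). With every probe set tested by itself, limma called 0 genes for genotype (352 probe sets at an unadjusted p under 0.05). With the replicate number as a block, limma again called 0 targets, with adjusted p from 0.356 to 0.996, where 0.0182% of all genes were called (2). At an unadjusted p under 0.05 the blocked fit held 4 of the 24 targets, Selenbp1, Ndrg1, Fam162a and Mxi1, beside 616 of all 10960 genes tested.

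In size, 18 of the 24 targets were higher and 6 lower in phd3 null, against 49.4% higher among all genes, with a median log2 difference of 0.31 against -0.01. The replicates did not share this lean: the median was 0.16 in pair 1, 0.73 in pair 2 and -0.04 in pair 3, with 16, 21 and 12 of the 24 higher in phd3 null. Without 1 array the median ran from 0.12, without phd3 null sample 2, to 0.51, without phd3 null sample 3, and was 0.19 without phd3 null sample 1. Wild-type sample 2 was below wild-type sample 1 in 17 of the 24 targets (70.8%, against 49.0% of all genes), whereas phd3 null sample 2 was below phd3 null sample 1 in 11 (45.8%, against 48.3%). By their brightest probe sets, 6 targets were higher in phd3 null in 3 of 3 pairs, a pattern of 12.6% of all genes. They were Bnip3, Fam162a, Mxi1, Selenbp1, Ndrg1 and Cited2. Lower in 3 of 3 pairs were 0 targets, against 1424 of all 10960 genes. The other probe sets of Fam162a and Mxi1 shared the pattern. That of Cited2 had the opposite mean sign (-0.14). Pair 3 was below 0 in that of Selenbp1 (-0.13) and in some of Ndrg1 (-0.82 and -0.50), while the rest of Ndrg1 kept the pattern.

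**Figure D5:**
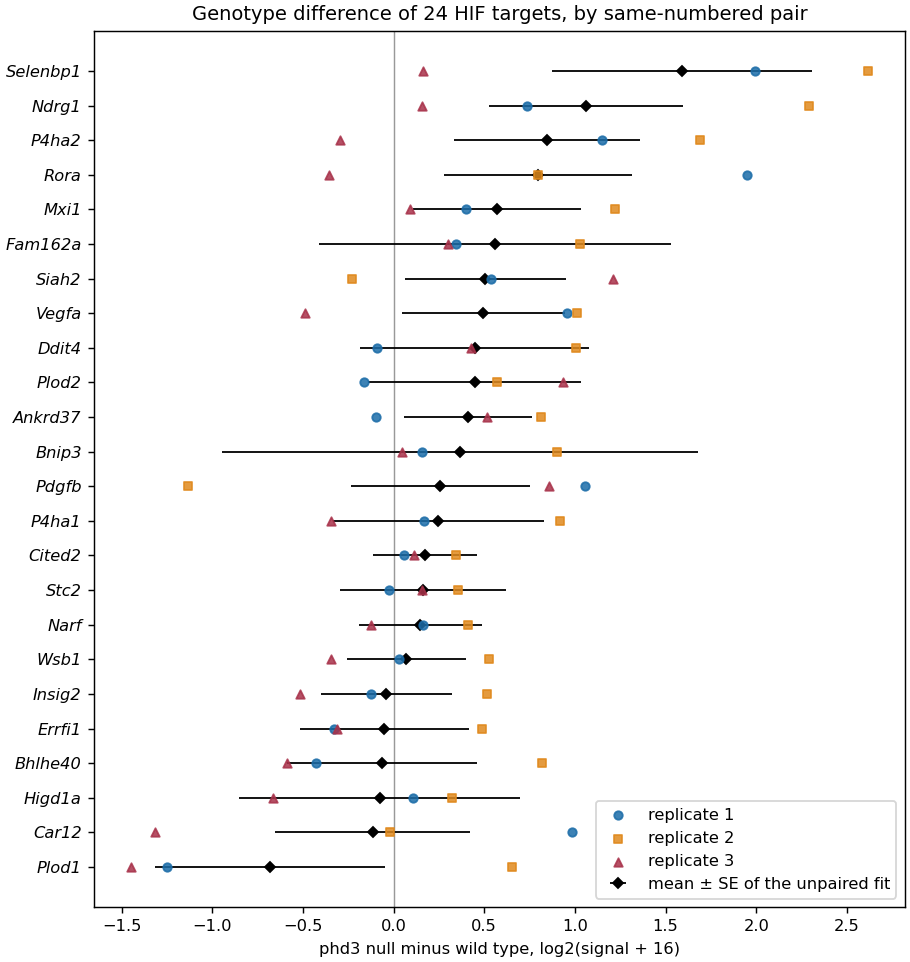
For each of the 24 targets, the phd3 null minus wild-type difference on the log2(signal + 16) scale in each same-numbered pair (circle, square and triangle for replicates 1, 2 and 3) with the mean and its SE from the unpaired fit in black. Pair 2 lies above 0 in 21 targets and pair 3 in 12, and the means run from -0.68 (Plod1) to 1.59 (Selenbp1).

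The largest genotype difference was that of Selenbp1, whose mean signal was 502.8 ± 373 (SD, n = 3) in phd3 null and 117.5 ± 63.4 (SD, n = 3) in wild-type samples, a log2 difference of 1.59 (SE 0.72). Within pairs it was 1.99, 2.61 and 0.16, so nearly all of it lay in pairs 1 and 2. The replicate block lowered the SE to 0.38 and gave an unadjusted p of 0.000650 but an adjusted p of 0.356 in limma, and with both replicate 3 arrays left out the difference was 2.30 (adjusted p 0.111). Its other probe set gave 1.56. Leaving out 1 array at a time gave values from 1.03, without phd3 null sample 1, to 2.53, without phd3 null sample 3.

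Ndrg1 had mean signals of 943.9 ± 523 (SD, n = 3) in phd3 null and 415.3 ± 214 (SD, n = 3) in wild-type samples, a log2 difference of 1.06 (SE 0.53). Its pairs differed by 0.73, 2.29 and 0.16, the same order of pairs 2 and 3 as in Selenbp1. Averaged over the pairs, its 4 other probe sets were all higher in phd3 null, by 0.51 to 1.70. The blocked unadjusted p was 0.00372 and the adjusted p 0.667. Leaving out phd3 null sample 2 gave 0.70 and leaving out phd3 null sample 3 gave 1.64. P4ha2 was at 153.9, 115.2 and 44.5 in phd3 null samples, with 60.7, 24.7 and 58.3 for wild type. Its phd3 null sample 3 fell between the wild-type values, and the difference was 0.85 (SE 0.51). It ran from 0.54, without phd3 null sample 1, to 1.28, without phd3 null sample 3, and was 1.42 with both replicate 3 arrays left out.

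Targets lower in phd3 null were few and differed little, apart from Plod1. Plod1 was at 18.9, 152.4 and 20.5 in phd3 null samples, with 67, 91 and 83.5 for wild type, a log2 difference of -0.68 (SE 0.64). Phd3 null sample 2 was the highest of all arrays and the other phd3 null samples the lowest, and its second probe set had the opposite sign (0.26). Leaving out phd3 null sample 2 gave -1.43, while leaving out either of the others of that genotype gave -0.29 (sample 1) or -0.32 (sample 3). Car12 was at 85.6, 55.3 and 24.6 in phd3 null samples, with 35.4, 56.2 and 84.9 for wild type. The genotypes covered the same range, with a difference of -0.12 (SE 0.54), and both of its other probe sets were above 0. Higd1a, whose signals stand above, differed by -0.08, with an SE of 0.78, or 0.24 with the replicate block. Over the targets with several probe sets, 28 of 33 further probe sets had the sign of the brightest for replicate 3 and 17 of 33 for genotype. Rora alone gave 8 of the 28 and 5 of the 17, mostly from dim probe sets. These counts were not made over all genes.

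Other HIF-linked genes, from lists chosen with earlier results in view, are given for comparison. Of 17 glycolytic targets tested, 14 were called lower in replicate 3 and 0 higher, with a median of -2.02. Among 16 further targets outside glycolysis that are not members of the list of 32, 6 were called lower and 0 higher, including Mif, a cytokine (-2.47), and Ak4, a mitochondrial adenylate kinase (-1.94). Of 11 genes of the HIF pathway itself, Hif1a (-1.43) and Egln1 (-2.14), the latter counted in both lists, were called lower and Hif3a (1.00) higher. In the blocked genotype fit, Egln3 was the single gene called in these lists. All of these comparisons use the same 6 arrays as the 32 targets.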

How the data were processed

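Total RNA of 6 samples was labelled with biotin and hybridised to Affymetrix arrays, per the labels. The authors deposited MAS5 signal intensities, which are linear, as the submitters' processing notes record without a version of MAS5. Each array's trimmed mean (2% left out per end) was 100. Of 45101 probe sets, 64 were controls; of the others, 34945 had 1 gene symbol, 932 several and 9160 were unnamed here.

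Each gene was taken as its probe set of highest mean log2(signal + 16), and genes with a mean under 5.90, the median over probe sets other than controls, were set aside. Fold changes on this scale understate changes of dim genes. limma 3.58.1 in R 4.3.3 (lmFit, eBayes with a trend, two-sided, Benjamini-Hochberg) fitted genotype alone, genotype with replicate number as a block, and an F test of replicate number beside genotype. Replicate numbers were treated as pairs because same-numbered samples share a source code and their deviations from group means correlated at 0.292, 0.151 and 0.474, each above 0.1. Pairs of unlike number gave -0.363 to 0.177, the highest being phd3 null 2 with wild type 1, so the correlations do not tell replicates 1 and 2 apart. Each array is 1 mouse, and 3 arrays per genotype limit the precision. The members and lists, and the rule for naming genes, were chosen with earlier results of these data known. The rule gives every sample for genes called in any test and for the 3 largest differences in each direction, and other genes named with values were chosen after these were seen. Motif searches and summaries used Python 3.11.15 and pandas 2.3.3. The code was tested on simulated data.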

Additional observations from a re-analysis of the deposited data

How the results depend on the processing

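No target was called for genotype under any alternative run, and the 9 calls for replicate number kept their direction in every alternative. With the replicate block, the pairing of same-numbered samples raised the genes called for genotype from 0 to 2 and called 0 targets; with both arrays of replicate 3 left out, 1 gene and 0 targets were called. Without a trend in the prior variance, limma called 0 genes and 0 targets for replicate (1883 and 8 at an unadjusted p under 0.05), and the mean of a gene's probe sets gave 602 genes and 5 targets of 21, without Higd1a, Bhlhe40, Mxi1 and Errfi1. The cause of these drops was not tested. The split of replicate calls into lower and higher in replicate 3 was 787 and 431, 584 and 410 with quantile normalization and 1075 and 257 with arrays centred on their medians. The median replicate 3 difference of all genes was then 0.10, 0.02 and -0.13. When 1 array was left out, 865 to 1642 genes and 6 to 10 targets were called for replicate, 0 to 1 genes and 0 targets for genotype, and the targets' medians ran from -1.07 to -0.13 for replicate 3 and from 0.12 to 0.51 for genotype.

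No difference whose sign turned under an alternative passed its test as given in the report. For genotype, Bhlhe40 was 0.020 with quantile normalization. With the mean of probe sets, Higd1a was 0.32, Insig2 0.29, Siah2 -0.13 and Narf -0.21. With array weights, Bhlhe40 was 0.25, Higd1a 0.23, Car12 0.10, Insig2 0.14, Errfi1 0.012 and Pdgfb -0.12. Without both replicate 3 arrays these 6 were 0.19, 0.22, 0.48, 0.20, 0.080 and -0.041. For the replicate 3 difference, Plod2 was -0.093 with quantile normalization and -0.094 with centred arrays, where Cited2 was -0.050 and Wsb1 -0.076. With 1 array left out, the genotype differences that turned ran over Bnip3 -0.94 to 1.83, Errfi1 -0.47 to 0.38, P4ha1 -0.20 to 0.92, Bhlhe40 -0.34 to 0.46, Higd1a -0.70 to 0.84, Car12 -0.42 to 0.24, Stc2 -0.066 to 0.42, Insig2 -0.30 to 0.16, Pdgfb -0.16 to 0.69, Wsb1 -0.11 to 0.22, Narf -0.065 to 0.38, Ddit4 -0.13 to 1.04 and Fam162a -0.38 to 1.62. The replicate 3 differences that turned ran over Car12 -1.07 to 0.73, Plod2 -0.24 to 0.49, Insig2 -0.55 to 0.16, Pdgfb -0.10 to 0.94, Siah2 -0.30 to 0.75, Plod1 -1.07 to 0.078, Vegfa -1.38 to 0.094, P4ha2 -1.30 to 0.41, Wsb1 -0.17 to 0.46 and Rora -0.073 to 1.66. Signals of the 6 dim targets and, on at least 1 array each, of P4ha2, Rora, Pdgfb, Plod1, Plod2, Car12, Siah2 and Stc2 reached to or below the array medians, which limits what they can show.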
